A study of Rattus norvegicus with 6 samples.

Results

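The 10 genes described here set what a cell does with pyruvate: Ldha and Ldhb encode the subunits of lactate dehydrogenase, Slc16a1 and Slc16a3 the plasma membrane carriers of lactate and pyruvate, Mpc1 and Mpc2 the mitochondrial pyruvate carrier, and Pdk1, Pdk2, Pdk3 and Pdk4 the pyruvate dehydrogenase (PDH) kinases. They were found by the RefSeq transcript of each row of the deposited mRNA table. All 10 genes were present, on 11 of its 20734 rows, since Ldhb had 2, among 20032 named genes and unnamed transcripts in all. The samples were ventricular cardiomyocytes of newborn Sprague-Dawley rats, 1 to 3 days old, in primary culture. In 3 samples the cells had been exposed to 10 µM isoproterenol, a synthetic agonist of beta-adrenergic receptors, for 24 h, and 3 control samples had been incubated for 24 h without it. Both groups had been depleted of fibroblasts by letting these attach first, and were kept without serum before and during the treatment. The labels also mention passaged cells and the series text transfected ones, which is unresolved. No label ties a replicate to a litter or culture day, so p-values measure only the spread between these samples, which may be technical.

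Pyruvate made by glycolysis has 2 main fates. Lactate dehydrogenase reduces it to lactate, which leaves or enters the cell with a proton through monocarboxylate carriers, or the mitochondrial pyruvate carrier brings it to the PDH complex, which turns it into acetyl-CoA. The PDH kinases phosphorylate and switch off that complex, and PDH phosphatases switch it on again. The tetramers of lactate dehydrogenase mix the A subunit, typical of skeletal muscle and other glycolytic tissue, with the B subunit, typical of the adult heart. Heart muscle takes up lactate and burns it beside fatty acids. Beta-adrenergic receptors raise cyclic AMP, and the Ldha promoter is a textbook target of cyclic AMP and of hypoxia-inducible factor, while Pdk4 is a textbook target of the peroxisome proliferator-activated receptors (PPARs) and of FOXO factors.

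The 250 bases before the RefSeq start of 4 of the genes are shown because these carry the largest rise and fall among the enzyme subunits and among the kinases. They are RefSeq sequences of assembly GRCr8, written 5′ to 3′ on the strand of the gene, and the start site follows the last base. Capitals mark the core of the hypoxia-response element (ACGTG or GCGTG) and the cAMP-response element (TGACGTCA) or its half-site (TGACG), on either strand.
Ldha, chr1:106507842-106508091, plus strand: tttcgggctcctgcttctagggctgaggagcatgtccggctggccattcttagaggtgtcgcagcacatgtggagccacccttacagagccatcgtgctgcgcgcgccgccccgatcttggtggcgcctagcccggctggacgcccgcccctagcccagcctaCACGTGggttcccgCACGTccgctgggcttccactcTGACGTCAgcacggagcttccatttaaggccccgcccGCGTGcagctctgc
Pdk1, chr3:77113264-77113513, plus strand: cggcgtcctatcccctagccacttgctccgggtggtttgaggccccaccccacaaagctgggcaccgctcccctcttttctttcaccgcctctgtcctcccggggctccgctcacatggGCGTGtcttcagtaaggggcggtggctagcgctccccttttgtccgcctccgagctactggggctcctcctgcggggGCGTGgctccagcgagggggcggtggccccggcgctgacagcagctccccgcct
Ldhb, chr4:177177409-177177658, minus strand: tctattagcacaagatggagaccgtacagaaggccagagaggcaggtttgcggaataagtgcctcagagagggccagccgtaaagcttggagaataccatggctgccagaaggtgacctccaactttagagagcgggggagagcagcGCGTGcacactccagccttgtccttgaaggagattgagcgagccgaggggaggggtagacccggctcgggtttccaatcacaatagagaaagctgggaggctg
Pdk4, chr4:34568330-34568579, minus strand: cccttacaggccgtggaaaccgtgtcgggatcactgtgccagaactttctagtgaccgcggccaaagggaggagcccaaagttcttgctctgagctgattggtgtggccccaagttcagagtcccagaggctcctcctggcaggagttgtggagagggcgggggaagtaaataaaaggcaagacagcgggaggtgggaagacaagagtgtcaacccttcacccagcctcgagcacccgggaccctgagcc
The Ldha promoter held 1 full cAMP-response element, starting 51 bases before the start, and was the only one of the 10 promoters with it or with its half-site. Of all 33469 promoters of the same length, 1.59% held the full element and 18.2% the half-site, which is contained in it. Hypoxia-response cores were found 4 times in Ldha, 2 times in Pdk1, 1 time in Ldhb and not in Pdk4. At least 1 such core was present in 7 of the 10 promoters, including those of Pdk2 and Pdk3, against 36.7% of all promoters. Cores that overlap on both strands of an E-box (CACGTG, in 3 of the 10 promoters and 5.59% of all) were counted on each strand. A GC box (GGGCGG) was present in 7 of the 10, against 30.5% of all promoters. None of the 10 promoters held the forkhead motif (GTAAACA, 3.21% of all promoters) or the direct repeat with 1 base of spacing that PPARs bind (0.0508%). Nor did any hold the nuclear receptor monomer site (AAAGGTCA, 1.24%), the extended nuclear receptor half-site (TCAAGGTCA, 0.388%) or the MEF2-type site (0.125%). These 10 motifs and the 4 promoters shown were chosen with the values of the genes known. A match describes letters only, and the absence of one says nothing of the factor.

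Across the 10 genes, 3 rose with isoproterenol (Ldha, Slc16a3 and Pdk1), 3 fell (Ldhb, Pdk2 and Pdk4), and 4 did not pass the test (Slc16a1, Mpc1, Mpc2 and Pdk3). Each change is a log2 fold change with isoproterenol over control. It was computed from scanner signals set relative to each array's 75th percentile, with limma's moderated test, two-sided, with Benjamini-Hochberg adjustment over 19942 genes and a threshold of 0.05. Of all genes tested 16.1% passed, 10.2% higher and 5.92% lower with isoproterenol. Higher genes made up 63.2% of these calls, but 73.8% after normexp background correction and 41.2% when arrays were scaled on probes detected on all of them. The median change was 0.47 for the 10 genes and 0.066 for all genes. These medians were 0.44 and 0.37 with normexp, 0.24 and -0.17 with the scaling on detected probes, 0.12 and -0.08 with quantile normalization, 0.16 and -0.032 with cyclic loess, and 0.024 and 0.11 within slide 1. The 6 genes that passed kept their direction under every scaling tried, whereas Mpc2 and Pdk3 did not.

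The arrays fell into 2 sets that each share a scan identifier in the file headers. Each set is called a slide here, which is inferred from that identifier. Slide 1 held the first isoproterenol array and all 3 control arrays, and slide 2 held isoproterenol replicates 2 and 3. The slide 2 arrays were dimmer, with a 75th percentile of the signal of 198 and 240 scanner units, against 514 to 562 on slide 1. Their negative control spots were brighter, with a median of 87 and 84 units before background subtraction, against 27 to 30 on slide 1. The median local background was 30 on slide 2 and 26 to 27 on slide 1. On slide 2, 61.3% and 70.9% of the mRNA probes were well above background, against 97.7% to 99.8% on slide 1. With slide as a block the treatment is estimated from slide 1 alone, where 1 isoproterenol array meets 3 control arrays. That fit called 7.31% of all genes (3.67% higher and 3.64% lower), and of the 10 genes it kept Slc16a3 as risen and Ldhb, Pdk2 and Pdk4 as fallen. A fit of slide 1 alone, which drops isoproterenol replicates 2 and 3 and assumes that the lone array varies like the controls, called 5.23% of all genes (2.5% higher and 2.73% lower), among them Ldhb and Pdk4 as fallen. The precision of every value is limited by the number of arrays.

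**Figure D1:**
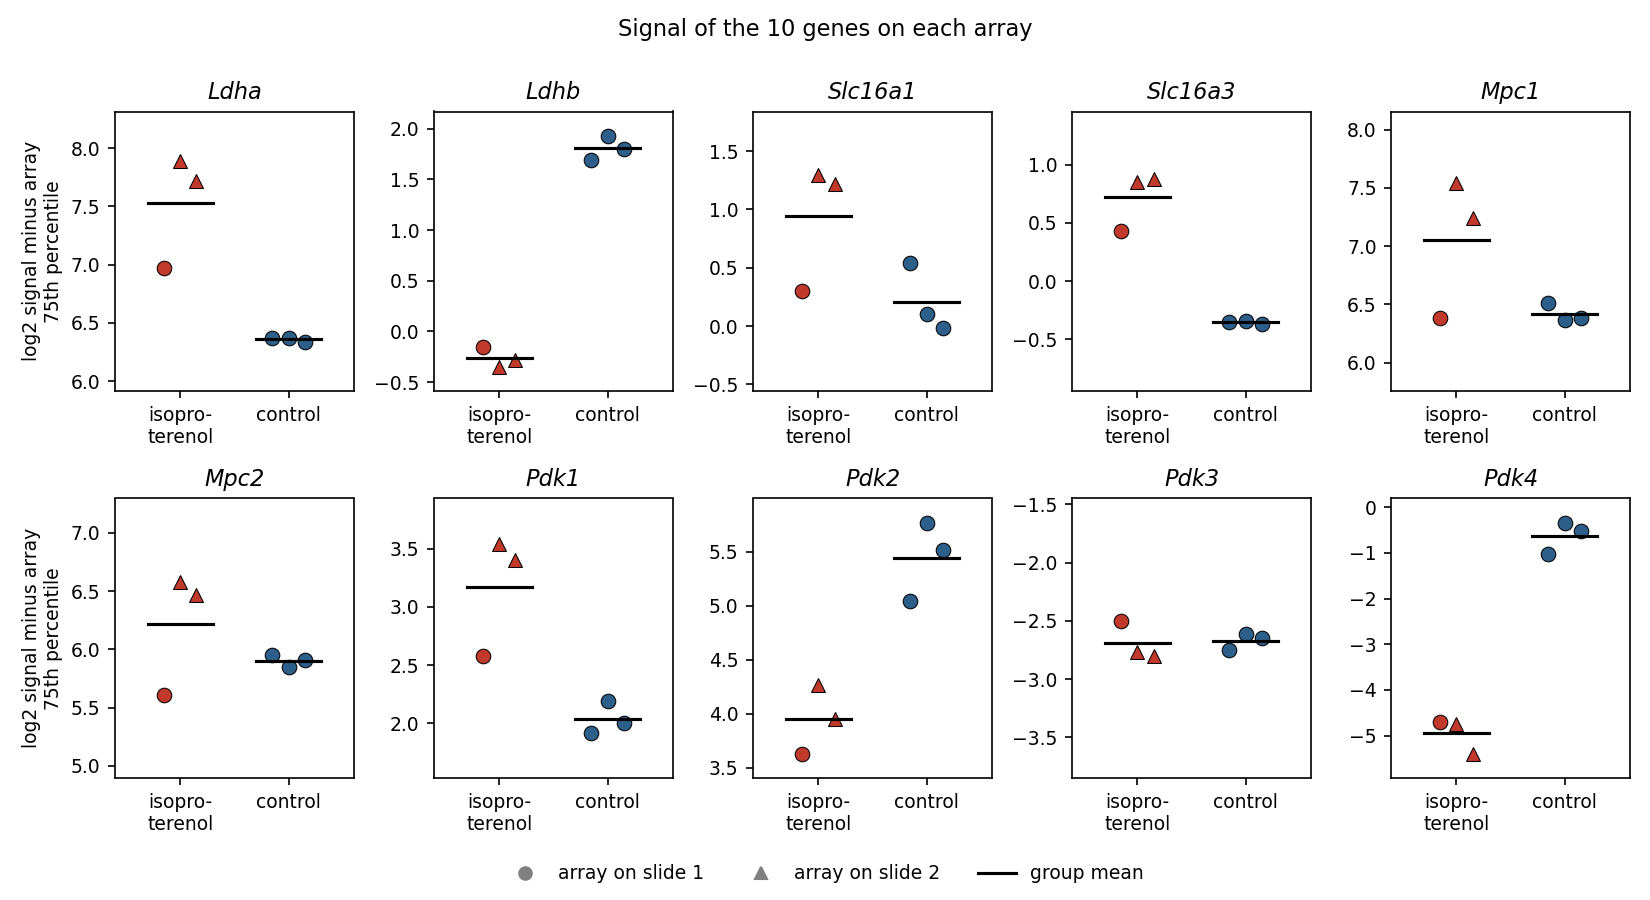
Log2 signal of each of the 10 genes minus the array's 75th percentile, on the 3 isoproterenol arrays (red) and the 3 control arrays (blue). Circles are arrays on slide 1, triangles arrays on slide 2 and bars group means. The groups do not overlap for Ldha, Ldhb, Slc16a3, Pdk1, Pdk2 and Pdk4, and scales differ between panels.

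The lactate dehydrogenase subunits changed in opposite directions. Ldha, whose subunit favours the reduction of pyruvate to lactate, had scaled log2 signals of 6.97, 7.89 and 7.72 on the isoproterenol arrays, against 6.37, 6.37 and 6.34 on the control arrays. All isoproterenol arrays lay above all control arrays, which spread by only 0.018 (SD), and the slide 1 isoproterenol array was the lowest of its group. In scanner units the slide 1 isoproterenol array was the highest. The isoproterenol arrays read 75200, 49100 and 52600 units, against 45200, 48300 and 44700 on the control arrays. The change was 1.17 ± 0.26 (SE, n = 3 per group, adjusted p = 0.0291, limma), or 2.24-fold. Within slide 1 it was 0.61 (adjusted p = 0.0751, limma), and over all 6 arrays it was 0.67 with quantile normalization (adjusted p = 0.0399) and 0.62 with cyclic loess (adjusted p = 0.0397), so the size of the rise depends on the slides used and on the scaling. The call was also lost when any 1 of the arrays other than isoproterenol replicate 1 was left out, with changes of 0.99 to 1.17.

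Ldhb, whose subunit favours the oxidation of lactate, had scaled log2 signals of -0.15, -0.35 and -0.28 with isoproterenol, against 1.69, 1.93 and 1.80 in control cells. The groups stood apart by more than 10 times the spread of either, and the slide 1 array lay close to those of slide 2. Ldhb fell by 2.06 ± 0.16 on the log2 scale (SE, n = 3 per group, adjusted p = 0.00226, limma), which is 4.17-fold lower. Within slide 1 the change was -1.95 (adjusted p = 0.0274, limma). The second Ldhb row, of transcript NM_012595, read -0.31, -0.065 and -0.079 on the isoproterenol arrays, against 1.49, 1.75 and 1.64 on the control arrays. Its change of -1.78 ± 0.17 (SE, adjusted p = 0.00339 over all probes, limma) had the direction of the first, and within slide 1 it was -1.93.

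Of the plasma membrane carriers, the one known as the exporter of glycolytic cells rose. Slc16a3, which encodes MCT4, had scaled log2 signals of 0.43, 0.85 and 0.88 with isoproterenol, against -0.35, -0.34 and -0.37 in control cells. After scaling the groups did not overlap, and the control arrays spread by 0.013 (SD). In scanner units the isoproterenol arrays read 808, 373 and 459, against 428, 459 and 427 on the control arrays. The place of the dimmer slide 2 arrays above the controls therefore rests on the scaling. The change was 1.08 ± 0.19 (SE, n = 3 per group, adjusted p = 0.0138, limma), or 2.11-fold. It was 0.79 with slide as a block (adjusted p = 0.0379, limma), and the call was lost within slide 1 and without any 1 control array or isoproterenol replicate 3, with changes of 0.79 to 1.08.

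Slc16a1 encodes MCT1, the carrier through which heart muscle takes up lactate. Its scaled log2 signals were 0.30, 1.30 and 1.22 with isoproterenol, against 0.54, 0.10 and -0.018 in control cells. The slide 1 isoproterenol array lay inside the range of the controls, and both slide 2 arrays lay above it. The difference of 0.73 had a 95% confidence interval of -0.016 to 1.48 (adjusted p = 0.146, limma), and within slide 1 the difference was 0.087.

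The mitochondrial pyruvate carrier is a dimer of Mpc1 and Mpc2 in the inner membrane, and neither gene passed the test. Mpc1 had scaled log2 signals of 6.38, 7.54 and 7.24 with isoproterenol, against 6.51, 6.37 and 6.38 in control cells. Mpc2 had 5.61, 6.58 and 6.47 with isoproterenol, against 5.95, 5.85 and 5.91 in control cells. For both genes the slide 2 arrays lay above the controls, while the slide 1 isoproterenol array lay within the control range for Mpc1 and below it for Mpc2. The difference was 0.63 for Mpc1 (95% confidence interval -0.093 to 1.36, adjusted p = 0.183, limma). For Mpc2 it was 0.31 (95% confidence interval -0.35 to 0.97, adjusted p = 0.436, limma). Within slide 1 the differences were -0.04 and -0.30, so the sign for both genes depends on the slide 2 arrays, and that for Mpc2 also turned with quantile normalization, to -0.12. Without isoproterenol replicate 1, when each group lies on a slide of its own, Slc16a1, Mpc1 and Mpc2 all passed as higher, with changes of 1.05, 0.97 and 0.62, in a fit that called 10396 genes.

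The PDH kinases split 3 ways. Pdk4, the kinase that rises with fasting and fatty acid supply in heart and muscle, had scaled log2 signals of -4.71, -4.74 and -5.40 with isoproterenol, against -1.03, -0.34 and -0.53 in control cells. In scanner units these were 22.9, 7.75 and 5.91 on the isoproterenol arrays, against 268, 461 and 383 on the control arrays. The groups were far apart, and the probe was well above background on 1 of 3 isoproterenol arrays and on 3 of 3 control arrays, so its level with isoproterenol was close to the limit of detection. Pdk4 fell by 4.32 ± 0.28 on the log2 scale (SE, n = 3 per group, adjusted p = 0.00151, limma), or 19.9-fold. Within slide 1, where the isoproterenol array had measured the probe, the change was -4.08 (adjusted p = 0.0274, limma). It was -1.68 with normexp correction (adjusted p = 0.0193, limma), whose offset of 50 exceeds the isoproterenol signals, so the direction held and the size depends on how signal near background is treated.

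Pdk2, the kinase most widely expressed in mammalian tissues, had scaled log2 signals of 3.63, 4.27 and 3.95 with isoproterenol, against 5.05, 5.77 and 5.52 in control cells. The groups did not overlap, and the slide 1 isoproterenol array was the lowest of all 6. The change was -1.50 ± 0.26 (SE, n = 3 per group, adjusted p = 0.0142, limma), which is 2.82-fold lower. It was -1.81 with slide as a block (adjusted p = 0.035, limma). The call was lost within slide 1 alone (adjusted p = 0.0519, limma) and without control replicate 2, control replicate 3 or isoproterenol replicate 3, with changes of -1.81 to -1.33.

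Pdk1, the kinase known as a target of hypoxia-inducible factor, had scaled log2 signals of 2.58, 3.54 and 3.40 with isoproterenol, against 1.92, 2.19 and 2.00 in control cells. After scaling all isoproterenol arrays lay above the controls, and the slide 2 arrays lay highest. In scanner units the isoproterenol arrays read 3590, 2400 and 2630, against 2060, 2660 and 2200 on the control arrays. The place of the dimmer slide 2 arrays above the controls therefore rests on the scaling. The change was 1.14 ± 0.28 (SE, n = 3 per group, adjusted p = 0.0377, limma), or 2.2-fold. Within slide 1 it was 0.55 (adjusted p = 0.132, limma), and the call was also lost with median scaling (adjusted p = 0.0545, limma) and without any 1 of the arrays other than isoproterenol replicate 1. Pdk3, the remaining kinase, had -2.50, -2.77 and -2.80 with isoproterenol, against -2.75, -2.61 and -2.65 in control cells. Its groups overlapped, its probe was well above background on 2 of 3 isoproterenol arrays, and the difference was -0.017 (95% confidence interval -0.42 to 0.38, adjusted p = 0.95, limma).

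**Figure D2:**
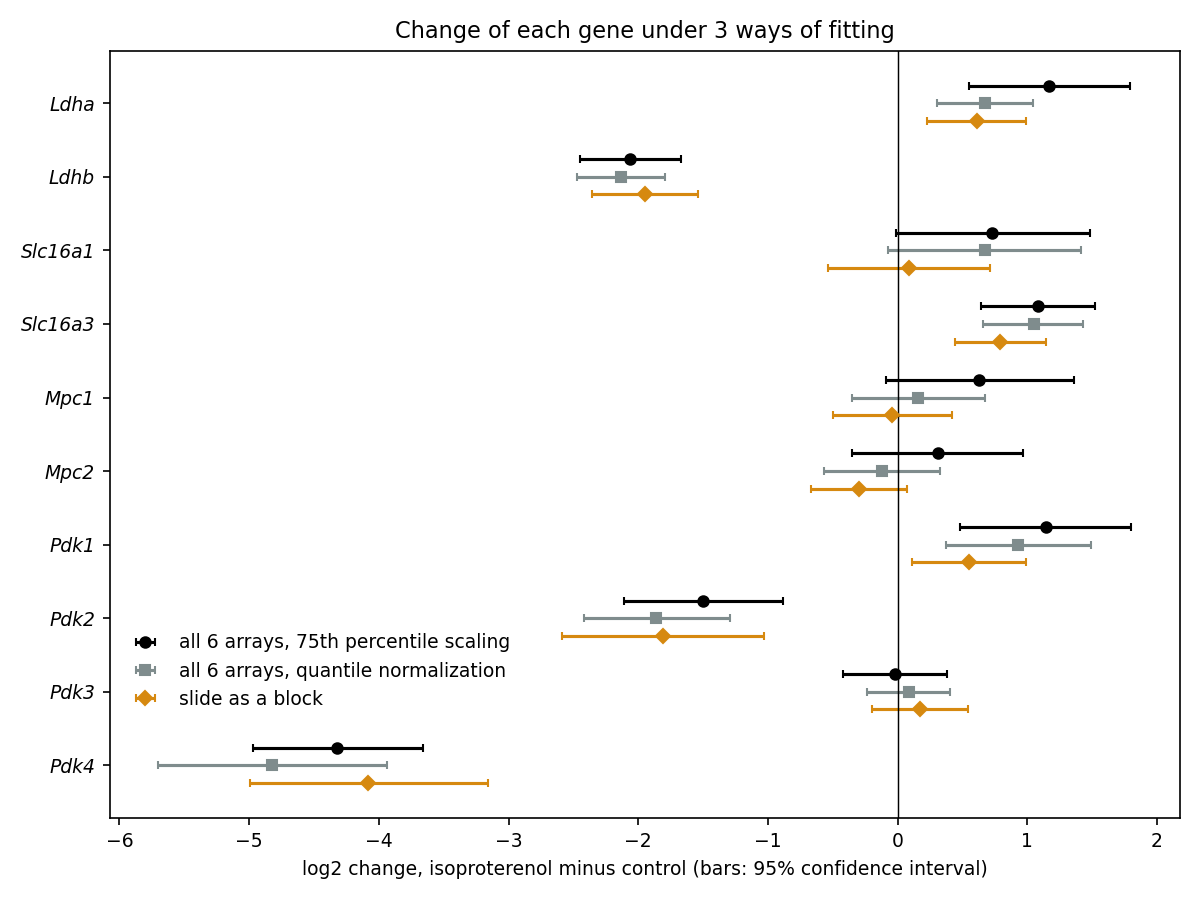
Log2 change of each of the 10 genes, isoproterenol minus control, with 95% confidence intervals from limma, over all 6 arrays with 75th percentile scaling (black), over all 6 arrays after quantile normalization (grey) and with slide as a block (orange). Ldhb, Pdk2 and Pdk4 lie below 0 under all 3, while Ldha, Slc16a3 and Pdk1 lie above 0 with smaller changes under the slide block.

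For all 6 genes that passed the test the isoproterenol and control arrays did not overlap, and for the other 4 they did. Of all genes tested 41.4% had groups that did not overlap, 25.6% with isoproterenol higher and 15.8% with isoproterenol lower.

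A difference between related genes on the same array is free of any constant scaling of that array, though not of quantile or cyclic loess normalization, and its change compares how the genes responded. Relative to the control mean, Ldha minus Ldhb stood at 2.56, 3.68 and 3.44 on the isoproterenol arrays, against 0.13, -0.11 and -0.013 on the control arrays. The shift of 3.23 in favour of Ldha was 2.56 within slide 1, 2.80 with quantile normalization and 2.81 with cyclic loess. Pdk1 minus Pdk4 shifted by 5.46, Pdk2 minus Pdk4 by 2.82 and Pdk3 minus Pdk4 by 4.30, with 4.62, 2.27 and 4.25 within slide 1. With normexp correction these shifts were 2.63, -0.0037 and 2.17, and all rest on the Pdk4 probe, which was well above background on 1 of 3 isoproterenol arrays. Mpc2 minus Mpc1 shifted by -0.32, and by -0.26 within slide 1, with no overlap between the groups. Slc16a3 minus Slc16a1 stood at 0.70, 0.11 and 0.22 on the isoproterenol arrays, against -0.33, 0.12 and 0.21 on the control arrays, which overlap. A two-sided exact permutation test gave p = 0.1 for the 5 pairs without overlap, the smallest that 3 against 3 arrays allow, and p = 0.3 for Slc16a3 minus Slc16a1. After Benjamini-Hochberg adjustment over the 6 pairs these exact p-values were 0.12 and 0.3, so no pair could reach 0.05 in this design.

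**Figure D3:**
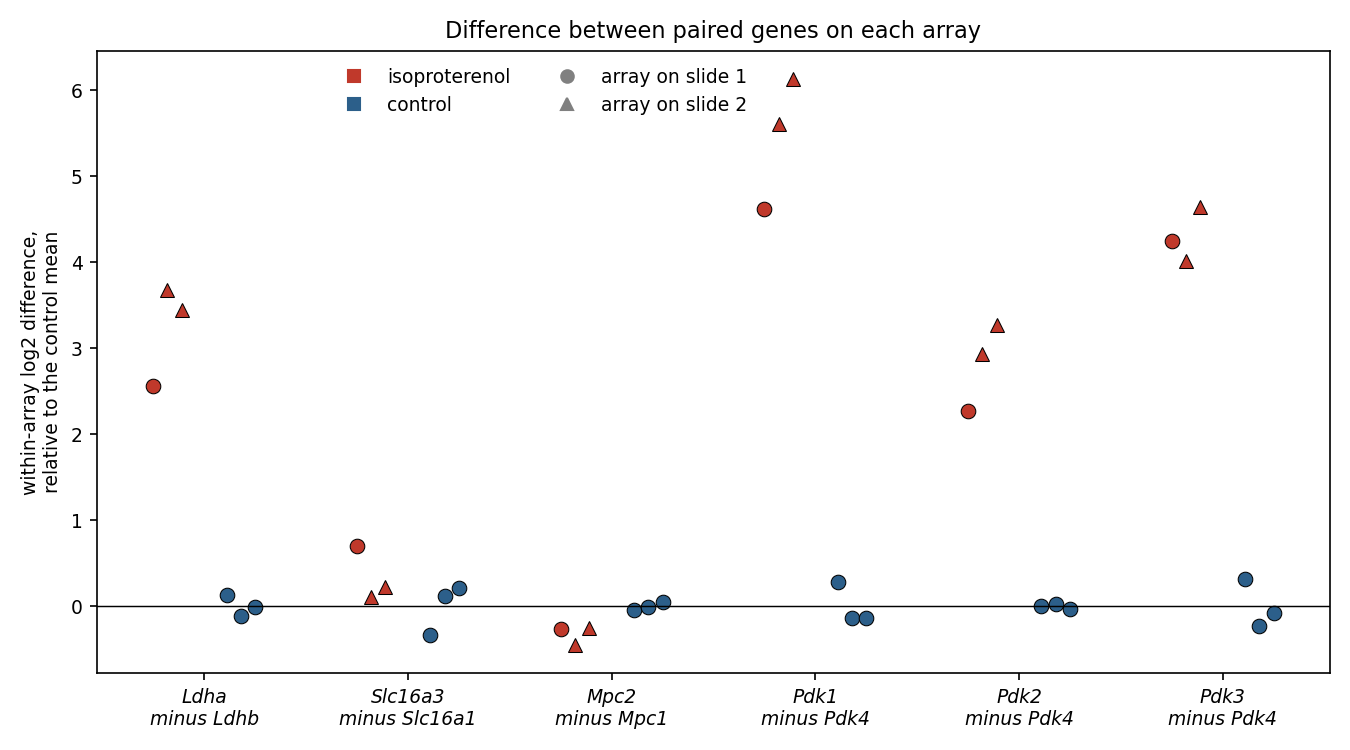
Within-array log2 difference between 2 related genes, relative to its mean over the control arrays, for 6 pairs on the isoproterenol arrays (red) and control arrays (blue). Circles are arrays on slide 1 and triangles arrays on slide 2. The groups overlap for Slc16a3 minus Slc16a1 and are apart for the other 5 pairs.

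Of the subunits of the PDH complex and its phosphatases, 1 of 7 tested genes rose and none fell, with a median change of 0.33, against 0.066 for all genes. Within slide 1 the list's median was 0.012, against 0.11 for all genes. The riser was Pdp1, a catalytic subunit of the PDH phosphatase, at 0.94 ± 0.25 (SE, adjusted p = 0.0478, limma) and 0.93 within slide 1, a call that was lost with slide as a block (adjusted p = 0.171). Pdha1, which carries the sites that the kinases phosphorylate, changed by 0.33 (adjusted p = 0.269, limma), and Pdhb by -0.45 (adjusted p = 0.119, limma). Among 13 other enzymes, which make or use pyruvate or acetate or are aspartate transaminases (Got1 and Got2), 2 rose and 4 fell, with a median of -0.10. Gpt2, the mitochondrial alanine transaminase, rose by 2.45 and by 1.69 within slide 1 (adjusted p = 0.00869 and 0.0325, limma). The malic enzyme gene Me1 rose by 1.56 (adjusted p = 0.0291, limma), with 0.78 within slide 1 (adjusted p = 0.122). The acetyl-CoA synthetases Acss1 and Acss2 changed by -1.96 and -0.90, the sulfurtransferase gene Mpst by -1.02 and the mitochondrial aspartate transaminase gene Got2 by -0.62, all past the threshold. With slide as a block 2 of these 4 fell, and the calls of Acss2 and Got2 were lost (adjusted p = 0.0731 and 0.0656). Pkm, the muscle pyruvate kinase, changed by -0.068 (adjusted p = 0.819, limma).

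Among 16 other monocarboxylate and lactate genes, 3 rose and 1 fell, with a median of 0.20 that turned to -0.15 with quantile normalization. Slc16a6, known from zebrafish as an exporter of the ketone body beta-hydroxybutyrate, rose by 2.48 ± 0.33 (SE, adjusted p = 0.00749, limma) and measured 2.45 within slide 1 (adjusted p = 0.0683). Slc16a13 and Emb, whose product embigin accompanies some of these carriers to the membrane, rose by 0.85 and 0.75, calls that were lost with slide as a block (adjusted p = 0.129 and 0.0974). Of this list 1 gene rose with slide as a block and none within slide 1. Slc16a10, a carrier of aromatic amino acids and not of lactate, fell by 2.23 on the log2 scale (adjusted p = 0.00392, limma). Bsg, the partner that MCT1 and MCT4 need at the membrane, changed by 0.23 (adjusted p = 0.418, limma).

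Textbook targets of the PPARs, the class to which Pdk4 belongs, fell in most cases: 10 of 18 fell and none rose, with a median change of -1.12. Of all genes 5.92% fell and 10.2% rose in that fit. Within slide 1, 13 of the 18 fell, with a median of -1.43, and over 7 ways of scaling or background correction between 10 and 14 fell and none rose. The lipid droplet gene Plin5 changed by -3.38, the carnitine palmitoyltransferases Cpt1b and Cpt1a by -2.66 and -2.21, the fatty acid transporter Cd36 by -2.48 and the thioesterase Acot1 by -1.97, all past the threshold. Plin5, like Pdk4, was well above background on 1 isoproterenol array. Its call was lost with slide as a block (adjusted p = 0.0655) and with quantile normalization (adjusted p = 0.0515), and it changed by -1.38 with normexp correction.

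Ldha, Pdk1 and Slc16a3 are also assigned to the textbook targets of hypoxia-inducible factor. Over all 6 arrays 10.2% of all genes rose and 5.92% fell. Of these 17 other targets 8 rose and none fell, with a median of 0.59. Within slide 1, 5 rose and none fell, with a median of 0.60, and over the 7 ways of scaling or background correction between 6 and 9 rose. Hk2, the inducible hexokinase, rose by 2.42 (adjusted p = 0.00754, limma) and by 1.88 within slide 1. The others that changed most were Ankrd37 at 1.58, the prolyl hydroxylase gene Egln3 at 1.50, the collagen prolyl hydroxylase gene P4ha1 at 1.46, the glucose transporter gene Slc2a1 at 1.43 and the phosphoglycerate kinase gene Pgk1 at 1.41. The calls of Slc2a1 and Pgk1 were lost within slide 1 (adjusted p = 0.064 and 0.0947). Vegfa and Car9, at 0.30 and 0.28, did not pass.

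Of 22 genes for regulators of PDH kinase and lactate dehydrogenase expression, 6 fell and none rose, while 5.92% of all genes fell and 10.2% rose. The list's median of -0.37 turned to 0.072 with normexp correction. The 6 that fell were the PPAR partners Rxrg, Rxra and Rxrb at -4.51, -1.31 and -1.07, the coactivator gene Ppargc1a at -1.97, Ppara at -0.75 and Hif1a at -0.75. Rxrg was well above background on 1 isoproterenol array, and within slide 1 the calls of Ppara and Hif1a were lost (adjusted p = 0.087 and 0.186, limma). Foxo1 changed by -0.70 (adjusted p = 0.0529, limma) and Arnt, the partner of hypoxia-inducible factor, by -0.74 (adjusted p = 0.0507, limma). Myc changed by 0.81 (adjusted p = 0.0525, limma), and by 0.89 with quantile normalization (adjusted p = 0.0484, limma). With that normalization 1 regulator rose and 7 fell. These lists were drawn up with earlier results of the same arrays known and are descriptions, not independent support for any of the 10 genes.

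**Figure D4:**
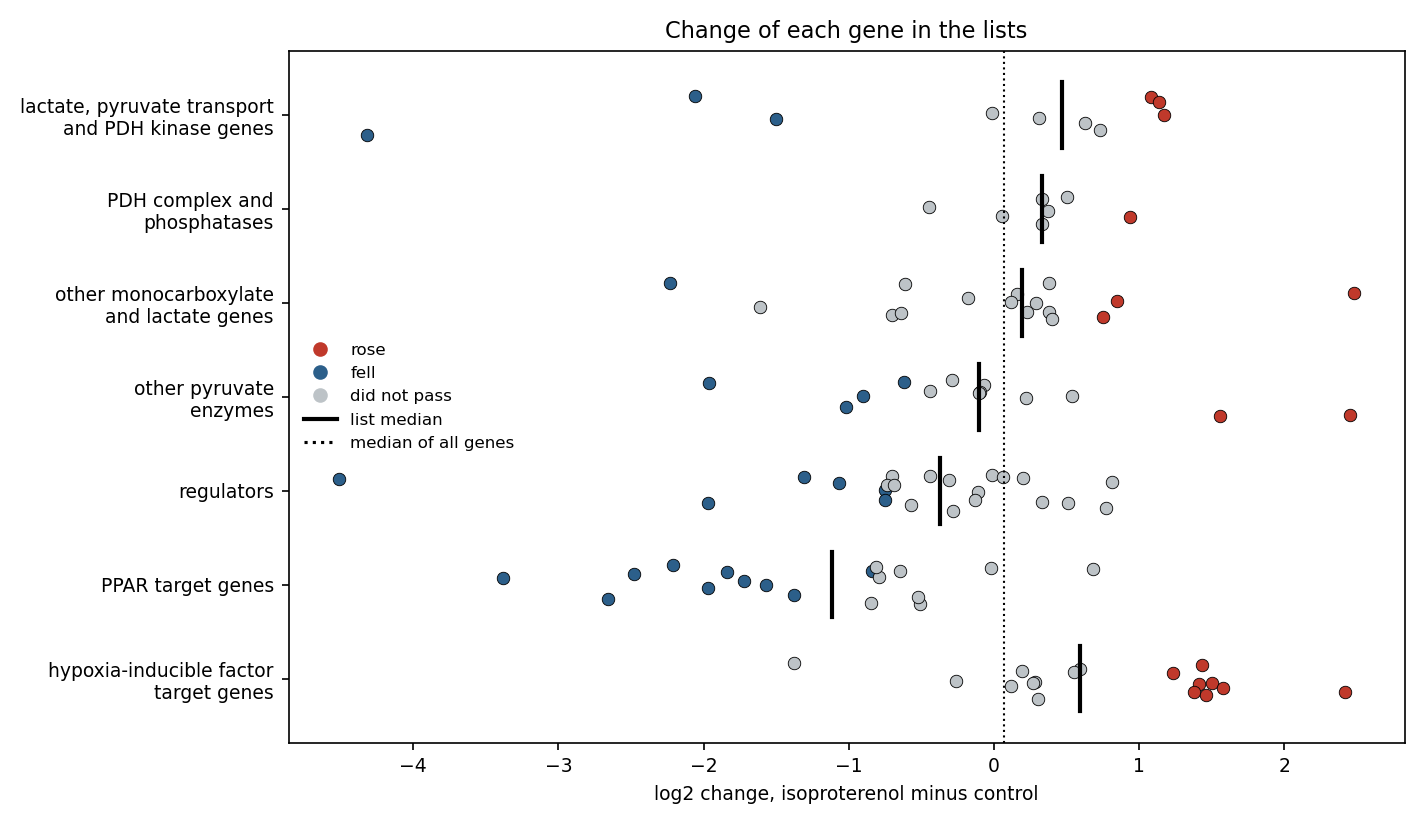
Log2 change, isoproterenol minus control, of each gene in 7 lists, in red where it rose, in blue where it fell and in grey where it did not pass the test. Black bars are list medians and the dotted line is the median of all genes, at 0.066. The medians are -1.12 for PPAR targets and 0.59 for targets of hypoxia-inducible factor.

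Array profiles, each centred on its mean over the 6 arrays, were compared across 13184 named genes by Euclidean distance. Closest to Ldha, the largest riser among the 10 with this scaling (Slc16a3 and Pdk1 changed more with quantile normalization, at 1.05 and 0.93 against 0.67), were Hdac1, Ptgr1, Dnajc2, Nubp2 and Sap30bp, at distances of 0.0824 to 0.115. Their changes reached 1.20 over all arrays, at Hdac1 and Ptgr1, and were 0.59 to 0.62 within slide 1. Closest to Pdk4, the largest faller, were Lrrc39, Rxrg, Slc25a34, Tbc1d10c and Fn3k, at distances of 0.543 to 1.02. Their changes were -4.51 to -3.63 over all arrays and -4.14 to -3.74 within slide 1. Rxrg was well above background on 1 isoproterenol array, and Slc25a34 and Fn3k on 2. The neighbours of both genes were picked on these same 6 arrays, so their likeness in change follows from the choice.

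Of 8 cardiomyocyte markers 8 were well above background on all arrays, 1 rose (Myh6, at 1.23) and none fell. Also well above background on all arrays were 7 of 8 fibroblast and 5 of 6 endothelial markers. The same held for 4 of 5 macrophage and leukocyte and 3 of 4 smooth muscle markers, so detection does not set these cell types apart. The summed linear signal of the cardiomyocyte markers, in multiples of the array's 75th percentile, was 1480 to 2480 with isoproterenol, against 1300 to 1470 in control cells. Their median change was 0.36, but -0.15 with quantile normalization and -0.10 within slide 1, so its direction depends on the scaling and the slides used. Over 7 ways of scaling or background correction 0 to 1 of them rose and 0 to 2 fell. Of 8 fibroblast markers 4 fell (Col3a1, Lum, Postn and Tcf21) and none rose, with sums of 127 to 168 with isoproterenol, against 152 to 161 in control cells. Of 4 smooth muscle markers tested 2 rose (Acta2 and Tagln) and 1 fell (Smtn), with sums of 215 to 496 with isoproterenol, against 82.8 to 148 in control cells. For endothelial cells 1 of 6 markers fell, with sums of 14.2 to 15.6 with isoproterenol, against 15.1 to 16.9 in control cells. For macrophages and leukocytes 1 of 5 rose, with sums of 16.5 to 21.4 with isoproterenol, against 13.9 to 23.0 in control cells. Erythroid markers (3 tested, 1 fell) summed to 0.197 to 0.362 with isoproterenol, against 0.318 to 0.426 in control cells, and Schwann markers (4 tested, 1 fell) to 0.167 to 0.25 with isoproterenol, against 0.321 to 0.337 in control cells. Within slide 1, 2 cardiomyocyte and 2 fibroblast markers fell, none of these rose, and no smooth muscle marker passed. No erythroid or Schwann marker was well above background on all arrays. The part of other cell types in the changes of the 10 genes was not tested, and in such bulk samples fewer cells of a type and less RNA per cell cannot be told apart.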

How the data were processed

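RNA of 3 isoproterenol and 3 control cultures was measured on one-colour arrays. Per the file headers, the scanner files give Cy3 intensity on a linear scale after background subtraction by Agilent Feature Extraction 11.0.1.1, with flags for spots well above background. The authors also deposited a table of normalized mRNA values with transcript identifiers, on a log2 scale as its values show. On slide 1 these lay within 0.000312 (95th percentile of the absolute difference) of quantile-normalized log2 signals. On slide 2 that percentile was larger, at 0.4706 for isoproterenol replicate 2 and 0.2427 for replicate 3. The 10 genes' values lay within 0.008044 on any array. No source used here names the tool behind the table.

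Scanner files name probes by design numbers, so each row of the table was paired with the probe whose quantile-normalized values lay nearest on the 4 arrays of slide 1, at a distance under 0.05 and under 0.25 of that to the next probe. This placed 20639 of 20734 rows and left 95 out, and all 20638 neighbouring pairs followed the order of the probe numbers. Names came from a RefSeq table of assembly GRCr8, which named 13956 of 14757 NM accessions and none of 5977 Ensembl transcripts. The headers name another build, so no coordinates were taken from it.

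Log2 of the processed signal, minus each array's 75th percentile, was fitted with limma 3.58.1 in R 4.3.3. Probes had to be well above background on at least 3 arrays, and the brightest probe stood for each gene (437 genes had more than 1). The code was tested on simulated arrays without a slide effect, which cannot speak for the fit to these arrays. Groups came from the sample titles, and the number of arrays limits the precision. The alternatives were normexp with an offset of 50 (on median spot signals in place of the mean ones planned, which the files' columns do not hold), quantile, median, detected-probe and cyclic loess scaling, the deposited table, filters, slide and replicate blocks, slide 1 alone and leaving out each array. A further alternative fitted every probe as its own item. Cyclic loess and the combinations of quantile normalization with a block or slide 1 were chosen after seeing the data. Named are the 10 genes, up to 6 genes past the threshold per list and direction with a few defining genes that did not pass, and the 5 genes nearest in profile to the largest riser and faller. The genes and lists were chosen with earlier results of these data known. Same-numbered arrays of the groups correlated at 0.0056, 0.052 and -0.023 in their deviations from the group means. With isoproterenol replicates 2 and 3 on another slide, these correlations cannot decide whether the numbers pair the arrays. The deposited lncRNA table was not used here, and 1 gene of the list of PPAR targets is not reported here.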

Additional observations from a re-analysis of the deposited data

How the results depend on the processing

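Over 22 alternatives Ldhb kept its call in 21, Pdk4 in 20 of 21, Pdk2 in 17, Slc16a3 in 15, Ldha in 10 and Pdk1 in 9, all with their direction. The alternatives are not independent, so these counts are no measure of support. No filter and every probe as its own item repeat the main changes, and the deposited table nearly repeats quantile normalization. Counts of 3 risen and 3 fallen among the 10 genes and 3207 over all genes became 1, 3 and 1457 with slide as a block, 0, 2 and 1043 within slide 1, and 1, 3 and 1469 with the replicate block. Within slide 1, cyclic loess gave 0, 3 and 1118, and quantile normalization 1, 3 and 1370. Quantile normalization with the slide block gave 1, 3 and 1039. After quantile normalization with the replicate block, limma called 0 risen, 0 fallen and 0 genes (lowest adjusted p among the 10 genes 0.0625), while 6 of the 10 and 5962 genes had an unadjusted p under 0.05. The replicate numbers are not known to pair the arrays. Where a fit kept more than 1 array per group and called none of the 10 as risen, 6 or 7 of them had an unadjusted p under 0.05. These include fallen genes, and 4797 to 5962 of the 19924 to 19942 genes tested were also under 0.05 in those fits. Leaving out 1 array gave 0 to 6 risen, 2 to 3 fallen and 369 to 10396 genes called. The highest counts came without isoproterenol replicate 1, where slide and treatment cannot be told apart. Detection on all arrays left 8 genes to test and 4252 calls over 12316. No filter changed nothing, since all matched genes had passed it. Genes that did not pass changed sign: Mpc1 to -0.04 with slide as a block and within slide 1, -0.21 with cyclic loess within slide 1, and -0.23 with quantile normalization within slide 1 or with the slide block. Mpc2 turned to -0.12 with quantile normalization, also with the replicate block, and in the deposited table, -0.18 with cyclic loess, -0.30 within slide 1 and with slide as a block, and -0.45 within slide 1 after either normalization and with quantile and slide block. Pdk3 turned to 0.48 with normexp, 0.084 with quantile normalization with and without the replicate block, 0.085 in the deposited table, 0.05 with median scaling, 0.17 with slide as a block and within slide 1, 0.22 with cyclic loess, 0.098 with cyclic loess within slide 1, and 0.12 with quantile normalization within slide 1 or with the slide block. Leaving out 1 array gave Pdk3 -0.11 to 0.036. The shift of Pdk2 minus Pdk4 turned to -0.0037 with normexp, whose offset exceeds the Pdk4 signals on the isoproterenol arrays. The cause of the other changes was not tested. Signal over background limits Pdk4 and Pdk3 with isoproterenol.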
